A study of Mus musculus with 8 samples.

Results

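The genes described here encode the Ikaros family factors Ikzf1 (Ikaros), Ikzf2 (Helios), Ikzf3 (Aiolos) and Ikzf4 (Eos), the Runx factors Runx1, Runx2 and Runx3, and Cbfb, the partner subunit of the Runx proteins. A called ATAC-seq peak belonged to one of these 8 genes when, in build mm10 (GRCm38), the gene end nearest to its midpoint, among 21887 protein-coding genes, was an end of that gene and lay within 50 kb. By this rule the 8 genes held 823 peaks over all libraries, between 95 and 111 per library. Merging peaks that overlapped gave 120 regions, of which 108 had a peak in at least 2 libraries, out of 50044 such consensus regions in all.

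ATAC-seq marks open chromatin by transposase insertion. The cells were splenic natural killer (NK) cells from unchallenged mice, enriched with DX5 beads and sorted as CD49b+ CD3e-, with 200000 cells from each mouse. The WT group comprised 4 mice that were wild-type for HSF1, the transcription factor of the heat shock response (replicates 4, 5, 6 and 7). The MUT group comprised 4 mice with HSF1-S303/7A, in which alanine replaces the serines at residues 303 and 307 (replicates 26, 27, 28 and 29). The labels give no strain, age or litter, and name no driver that would limit the mutation to NK cells, so any such difference between the groups cannot be told apart from the genotype. Each mouse was 1 library with its own peak list of 42695 to 49627 peaks, and MUT replicate 27 had the longest list. Depth is unknown, because the lists hold positions and an unnamed score but no read counts, so a region without a peak is one that was not called. Of 10 NK marker genes, 9 had a peak within 1 kb of a gene end in 8 of 8 libraries. Of the B cell markers 1 of 10 did, with Fcrla among those at 0 there in every library, and of the T cell markers 6 of 10, with Cd8a and Cd8b1 at 0. The myeloid markers had 3 of 10 and the erythroid and platelet markers 3 of 10, with Csf1r, Lyz2, Gata1 and Klf1 among those at 0.

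As background, Ikaros family proteins are zinc finger factors that bind DNA as dimers, pair with one another and recruit chromatin remodelling complexes. They shape the development of lymphocytes, NK cells included. Runx proteins bind DNA through the Runt domain, and Cbfb, which does not bind DNA itself, stabilises that contact. Runx3 and Cbfb are needed for normal NK cell development, Runx1 is essential for blood stem cells, and Runx2 is best known from bone. Each mammalian Runx gene is known for a distal and a proximal promoter.

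The annotated starts of the Runx genes are shown first, because whether the distal ones carried a peak separated Runx2 from Runx1 and Runx3. For Runx2 only the distal start was available, so its proximal promoter was not examined. The sequences are from RefSeq (GRCm38.p6), run 5′ to 3′ along the gene's own strand, and cover 250 bases before the annotated start and 50 bases from it. Capitals mark every match to ACCACA or to TGTGGT, its other strand, the core that Runx proteins bind.
Runx1 distal start, chr16:92826025-92826324, minus strand: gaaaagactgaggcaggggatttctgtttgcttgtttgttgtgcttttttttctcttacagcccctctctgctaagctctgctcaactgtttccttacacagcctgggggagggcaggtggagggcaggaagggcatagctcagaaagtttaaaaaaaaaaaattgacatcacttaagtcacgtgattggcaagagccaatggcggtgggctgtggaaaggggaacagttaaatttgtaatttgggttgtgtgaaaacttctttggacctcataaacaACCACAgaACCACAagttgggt
Runx2 distal start, chr17:44814578-44814877, minus strand: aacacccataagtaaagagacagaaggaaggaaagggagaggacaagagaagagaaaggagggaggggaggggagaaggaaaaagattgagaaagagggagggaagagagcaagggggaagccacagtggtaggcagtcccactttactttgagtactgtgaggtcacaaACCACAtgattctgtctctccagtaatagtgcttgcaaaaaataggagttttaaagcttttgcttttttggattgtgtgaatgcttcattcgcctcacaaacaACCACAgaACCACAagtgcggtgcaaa
Runx3 distal start, chr4:135120395-135120694, plus strand: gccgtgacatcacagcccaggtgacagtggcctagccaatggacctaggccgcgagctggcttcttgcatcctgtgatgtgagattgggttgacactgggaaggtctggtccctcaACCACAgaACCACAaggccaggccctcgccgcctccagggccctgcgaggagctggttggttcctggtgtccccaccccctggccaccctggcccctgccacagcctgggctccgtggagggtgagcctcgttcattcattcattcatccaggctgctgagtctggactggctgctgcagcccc
Runx1 proximal start, chr16:92697280-92697579, minus strand: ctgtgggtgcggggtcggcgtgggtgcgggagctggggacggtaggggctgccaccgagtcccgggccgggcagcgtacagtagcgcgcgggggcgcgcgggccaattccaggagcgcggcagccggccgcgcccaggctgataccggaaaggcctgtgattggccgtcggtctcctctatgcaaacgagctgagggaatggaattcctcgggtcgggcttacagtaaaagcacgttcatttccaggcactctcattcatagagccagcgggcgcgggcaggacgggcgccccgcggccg
Runx3 proximal start, chr4:135152295-135152594, plus strand: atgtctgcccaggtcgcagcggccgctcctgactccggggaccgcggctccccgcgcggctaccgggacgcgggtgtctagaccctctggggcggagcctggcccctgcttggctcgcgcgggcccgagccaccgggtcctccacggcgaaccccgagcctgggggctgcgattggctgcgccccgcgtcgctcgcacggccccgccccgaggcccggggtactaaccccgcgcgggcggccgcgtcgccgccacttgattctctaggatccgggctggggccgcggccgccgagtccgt

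The 3 distal windows had 2, 3 and 2 matches to this core, and the 2 proximal windows had 0. Among all 32851 windows of the same length in the table, 16.8% held at least 1 match and 1.81% at least 2. The longest stretch common to the distal windows of Runx1, Runx2 and Runx3 was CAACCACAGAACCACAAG, 18 bases with 2 matches in tandem. It lay 27 to 44 bases into the transcribed side of the start in Runx1, 22 to 39 bases in Runx2, and 136 to 119 bases before the start in Runx3. Of the 32851 windows, 4 (0.0122%) held it on either strand. The windows of the 3 Runx genes hold it by definition. The other was that of Gm16225, a non-coding gene whose window overlaps the Runx3 window on the opposite strand. The letters TGGGAA, searched on both strands, an Ikaros core that overlaps the core letters of Ets factors, occurred in 1 of the 8 windows of these genes, the distal one of Runx3, against 25.6% of all windows. Matches were counted by their first base, could share bases with one another, and describe letters only. The distal windows of Runx1 and Runx2 held 2 CG dinucleotides each and that of Runx3 held 8, while the proximal windows held 35 (Runx1) and 45 (Runx3). Ikzf1 has 2 windows in the table and Cbfb 1. Ikzf2, Ikzf3 and Ikzf4 are described by gene end.

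The distal start of Runx3 carried the linked region with the highest mean score percentile of all 8 genes. That region (chr4, 135119921 to 135120769) covered the whole 300-base window and the shared stretch in 8 of 8 libraries. Its score stood at the 96.4, 97.8, 98.1 and 99.0 percentile of the peaks of the WT libraries and at the 97.0, 97.6, 97.6 and 97.6 percentile of the MUT libraries. A percentile ranks a peak's score within its own list and is given as a description, since lists of different lengths do not show a change. A region called as several peaks in a library was given their summed length and the highest of their percentiles. The length of the region was 775, 757, 733 and 779 bp in WT and 840, 770, 785 and 778 bp in MUT (log2 difference 0.03, SE 0.0528, limma adjusted p = 0.882). The genotypes overlapped in length, and the region ranked high by score in every library.

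The proximal start of Runx3 had a region of greater summed length than the distal start, but it ranked low. Its region (chr4, 135151980 to 135153159), in the body of the gene 31.9 kb after the distal start, was 995, 1059, 1035 and 1001 bp long in WT and 911, 1031, 916 and 917 bp in MUT. WT replicates lay above 3 of the 4 MUT libraries, and MUT replicate 27 lay within the WT range. Only in WT replicate 5 was the region a single peak. In WT replicate 4, for example, peaks ran from 31.361 to 32.088 kb and from 32.184 to 32.45 kb after the distal start. The log2 difference was -0.15 (SE 0.0391), with an unadjusted p of 0.00538 and a limma adjusted p of 0.304 over 34461 regions. With equal numbers of peaks per list the difference was -0.29 (limma adjusted p = 0.648). The percentile was 21.9 to 26.3 in WT and 11.7 to 21.8 in MUT. The same order of ranks, distal above proximal, was seen in 8 of 8 libraries.

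Runx1 was open at both of its annotated starts. The distal region (chr16, 92825430 to 92826591) varied little, at 1150, 1155, 1157 and 1160 bp in WT and 1157, 1160, 1150 and 1149 bp in MUT, and its percentile lay between 57.1 and 63.1 in all 8 libraries. The proximal region (chr16, 92697161 to 92698985) had the greatest summed length in the body of any of the 8 genes. It measured 1683, 1796, 1761 and 1747 bp in WT and 1746, 1673, 1662 and 1677 bp in MUT, with a mean percentile of 51.5. A single peak covered it only in WT replicate 5. It lies 96.6 kb from the nearer gene end, so the 50 kb rule does not count it for Runx1. The limma adjusted p-values of the length differences were 0.820 (log2 -0.03) and 0.603 (log2 -0.08).

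No library had a peak at the annotated distal start of Runx2, although its window holds the shared stretch. The covered length of that window was 0 bp in 8 of 8 libraries, against 300 bp in 8 of 8 at the distal starts of Runx1 and Runx3. The nearest region (chr17, 44818830 to 44819236) lay 4.24 kb upstream of the gene, with 335, 382, 388 and 387 bp in WT and 329, 326, 406 and 371 bp in MUT. Open regions did lie further inside the 319 kb gene. Whether any of them lies at the proximal promoter was not tested, because no proximal start of Runx2 was available. The region at 44735120 to 44736611, 78.9 kb after the gene start, was 1373 to 1485 bp long in WT and 1373 to 1488 bp in MUT, with percentiles of 63.7 to 67.4. Its nearest gene end is that of Supt3, a gene that overlaps Runx2, so it is not linked to Runx2 by the rule.

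**Figure D1:**
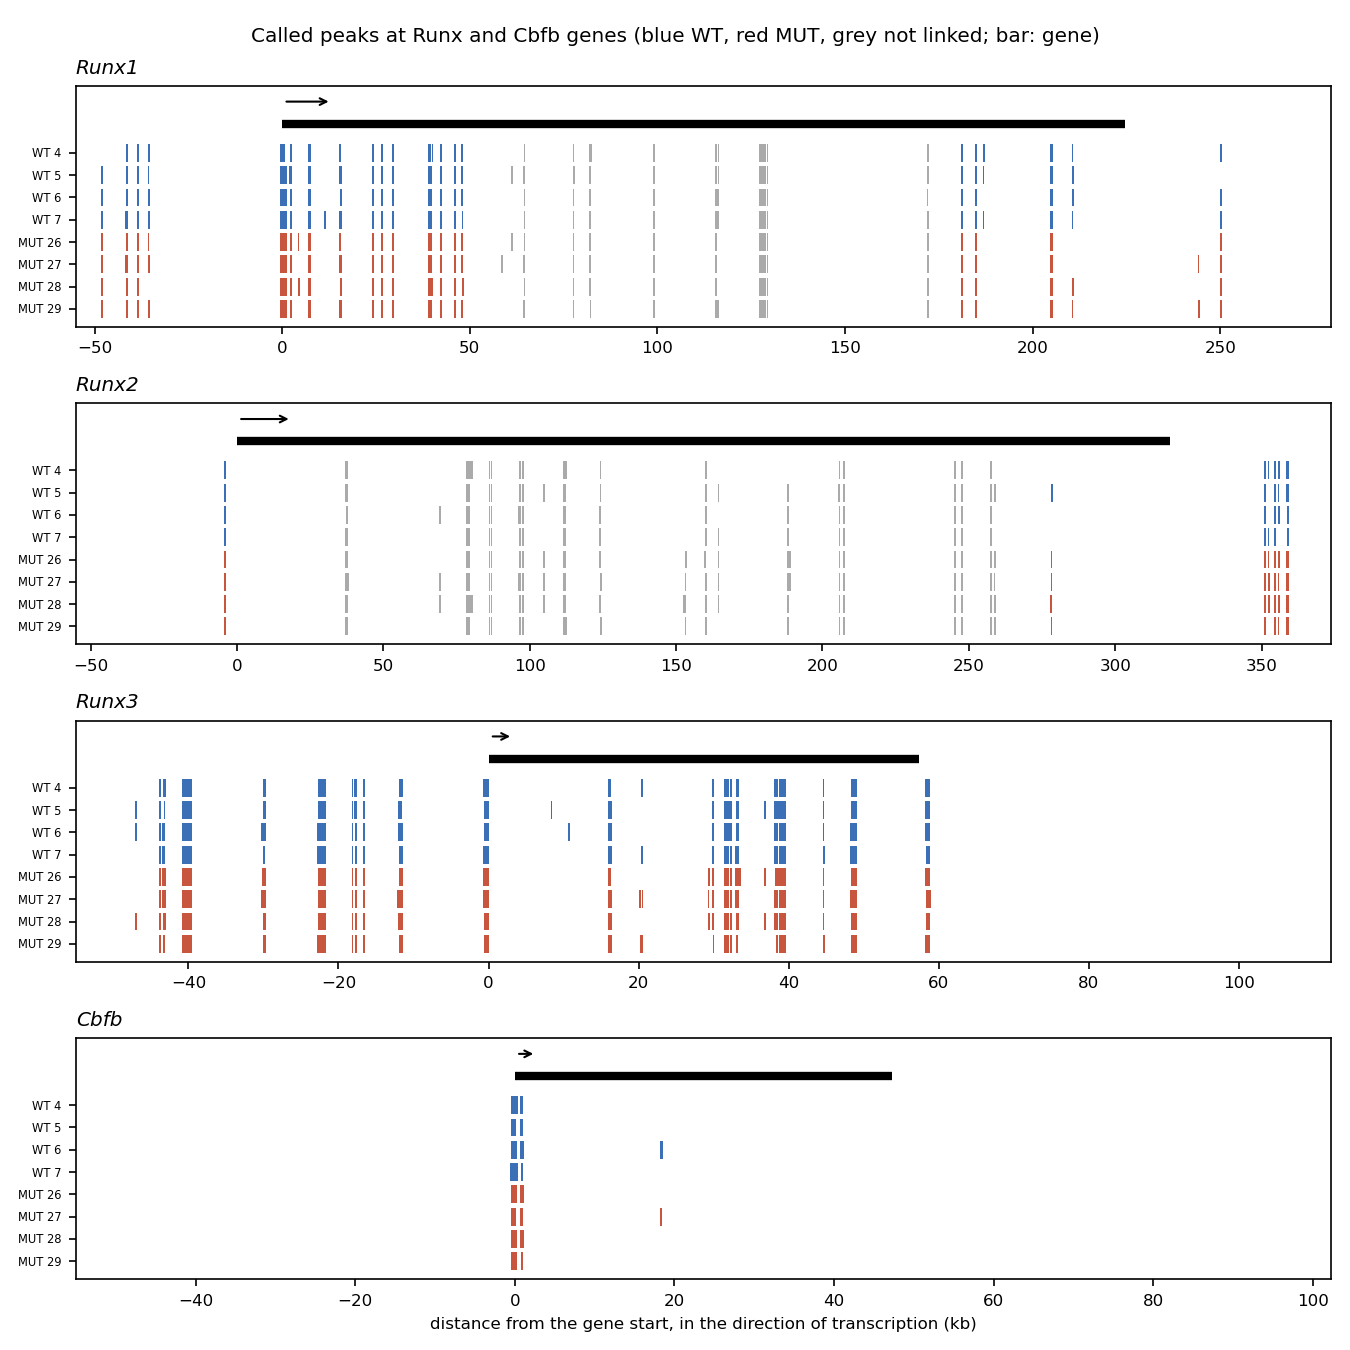
Called peaks along Runx1, Runx2, Runx3 and Cbfb, by distance from the gene start in kb in the direction of transcription. Each line of marks is 1 library (blue WT, red MUT). Grey marks are peaks in the gene that the rule does not link to it, and the black bar is the gene. The distal start of Runx2 has no mark within 4 kb in any library.

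Cbfb and Ikzf1 were open at their starts too. The Cbfb start region (chr8, 105170120 to 105171031) measured 880, 704, 747 and 912 bp in WT and 783, 738, 778 and 765 bp in MUT, at percentiles of 82.3 to 88.9. It was the longest and the highest ranked of the 3 consensus regions of Cbfb. At Ikzf1 the region over the first annotated start of the table (chr11, 11685286 to 11686437) measured 1139, 1130, 1086 and 1109 bp in WT and 1150, 1133, 1140 and 1125 bp in MUT, and ranked at 10.4 to 32.4. The region over the second annotated start (11689894 to 11690878) ranked lower still, at 2.64 to 6.87, with lengths of 607 to 869 bp in WT and 636 to 931 bp in MUT. Length and percentile went together over the 108 consensus regions of the 8 genes (Spearman's rho 0.746 across regions, which share the libraries and are not independent) and over all 50044 (0.776). Regions longer than 700 bp with a mean percentile under 25, bounds chosen after the values were seen, were 3 of 108 (2.78%) here and 0.202% of all. These 3 were both Ikzf1 starts and the proximal Runx3 start. Their lengths are sums of peaks where a region was split. The second Ikzf1 start was split in WT replicates 6 and 7 and MUT replicates 26 and 29, and the proximal Runx3 start in all but WT replicate 5.

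**Figure D2:**
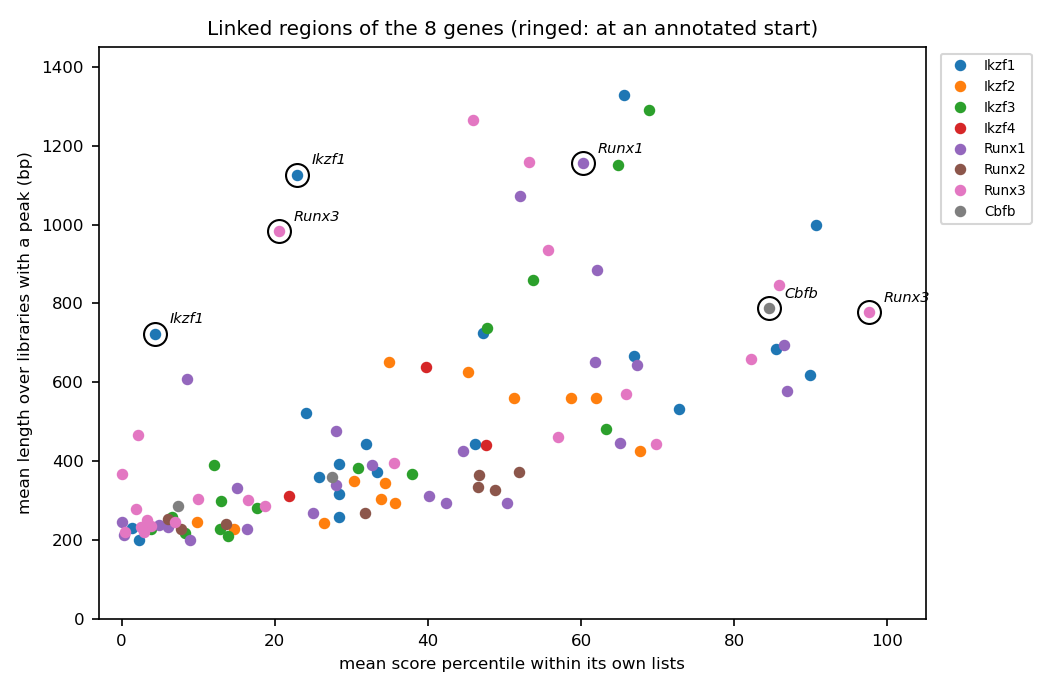
Mean length in bp (peaks of a region summed in each library) against mean score percentile for each of the 108 consensus regions, coloured by gene. Rings mark regions over an annotated start: the distal start of Runx3 lies at a percentile of 97.6, while its proximal start and both starts of Ikzf1 lie under 25 at lengths over 700 bp.

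The Ikzf1 regions with the highest score ranks lay inside the gene rather than at its starts. The region 31.5 kb after the gene start (chr11, 11715920 to 11717101) ranked at 86.9 to 91.3 in WT and 88.0 to 93.8 in MUT, with 802, 816, 1083 and 1121 bp in WT and 1158, 1108, 1092 and 804 bp in MUT. The region at 11750944 to 11751591 ranked at 84.0 to 89.2 in WT and 91.0 to 95.2 in MUT, while its length was 603 to 648 bp and 588 to 631 bp. The linked region with the greatest summed length of all 8 genes (11725182 to 11726652) was also in Ikzf1. It measured 1283, 1276, 1335 and 1331 bp in WT and 1350, 1439, 1387 and 1233 bp in MUT. Only in MUT replicates 27 and 28 was it a single peak.

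The other Ikaros genes differed in how their ends were covered. Ikzf3 had a region at each end: 1107 to 1250 bp in WT and 1090 to 1159 bp in MUT at the lower end by coordinate (chr11, 98463703 to 98464961), and 355 to 452 bp and 377 to 407 bp at the upper end (98545696 to 98546147). The first ranked at 63.1 to 67.9 and the second at 2.87 to 22.4. The highest ranked Ikzf3 region lay in its body (98509294 to 98510629), with 1284, 1276, 1282 and 1278 bp in WT and 1287, 1306, 1316 and 1293 bp in MUT. Ikzf2 had 1 gene-end region (chr1, 69687109 to 69687918) of 660, 613, 641 and 645 bp in WT and 684, 614, 788 and 562 bp in MUT. Its highest ranked region lay 34.8 kb outside the other end (69496053 to 69496718), at a mean percentile of 67.6. Ikzf4 had no consensus region within 1 kb of either end, and all 3 of its regions were in the gene body.

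**Figure D3:**
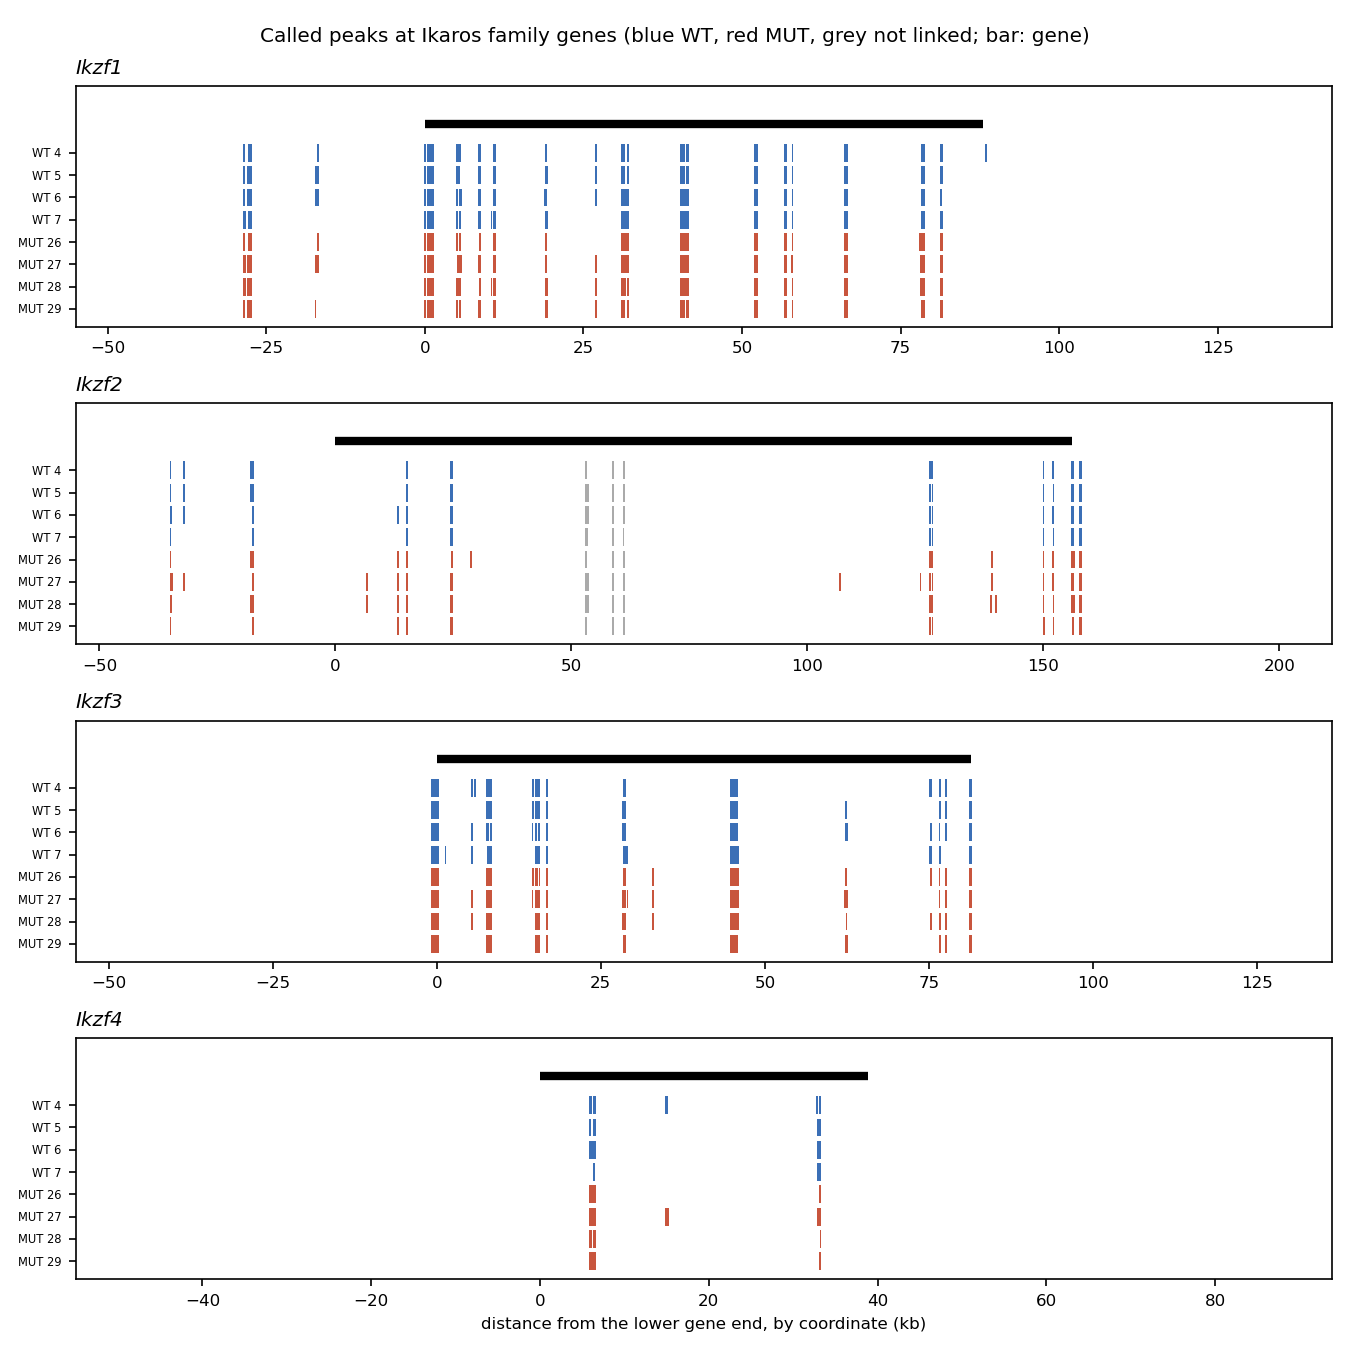
Called peaks along the 4 Ikaros family genes, by distance in kb from the lower gene end by coordinate. Each line of marks is 1 library (blue WT, red MUT), grey marks are peaks in the gene that the rule does not link to it, and the black bar is the gene; Ikzf4 shows 3 positions and Ikzf1 the densest pattern.

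In total length Runx3, Runx1 and Ikzf1 were among the genes with the most linked open chromatin. The summed length of linked peaks, averaged over the 8 libraries, put them at the 99.97, 99.92 and 99.93 percentile of the 14258 genes with a linked peak in at least 2 libraries, where the median gene had 1016 bp and 2 consensus regions. They had 23, 24 and 19 consensus regions. Ikzf3 followed at the 99.2 percentile with 15 regions, Ikzf2 at 97.6 with 13, Runx2 at 82.8 with 8, and Cbfb (60.8) and Ikzf4 (57.9) with 3 each. These sums grow with the stretch of genome for which a gene owns the nearest end, so levels were compared per kb of that stretch. Per kb the order was Runx3 (90.9 ± 3.60 bp, SD over 8 libraries), Ikzf1 (82.1 ± 3.64), Ikzf3 (77.3 ± 3.81), Runx1 (58.8 ± 2.62), Ikzf4 (28.1 ± 7.15), Ikzf2 (24.7 ± 3.81), Cbfb (19.9 ± 2.37) and Runx2 (13.8 ± 2.41), with a median over all genes of 24.0 bp per kb. By this measure they stood, in that order, at the 92.3, 90.7, 89.5, 82.8, 57.0, 51.3, 42.8 and 29.4 percentile of the genes tested. Library ranges were separate between Ikzf3 and Runx1, between Runx1 and Ikzf4 and between Cbfb and Runx2. The ranges of the other neighbours overlapped. Runx3 lay above Ikzf1, and Ikzf1 above Ikzf3, in 8 of 8 libraries, whereas Ikzf4 lay above Ikzf2 in 6 and Ikzf2 above Cbfb in 7.

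Most of the regions lay in the gene bodies. Of the 108 consensus regions 67 (62.0%) were in the body of their gene, 10 (9.26%) within 1 kb of a gene end and 31 (28.7%) outside, against 39.5%, 29.6% and 30.9% of all 41602 linked consensus regions. At Runx3, 11 of 23 regions lay outside the gene, and the longest of these was 40.2 kb before the start (chr4, 135079820 to 135081098; 1254 to 1265 bp in WT, 1263 to 1279 bp in MUT). At Runx2, 7 of 8 lay outside, 6 of them in a group downstream of the gene. A further 36 consensus regions lay in the bodies of Ikzf2 (3), Runx1 (10) and Runx2 (23) without being linked to them. At the 50 kb limit, the Runx1 region 48.2 kb from a gene end was the farthest linked one (7 libraries, mean 257 bp), and a Runx1 region at 52.6 kb (8 libraries, mean 350 bp) the nearest one left out.

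Between the genotypes, none of the 8 genes passed the test of linked length. The test was limma on log2(scaled length + 200 bp) over all 14258 genes with Benjamini-Hochberg adjustment at 0.05, and it called 63 genes higher (0.442%) and 33 lower (0.231%) in MUT. Both directions together came to 0.673% of genes. Runx2 and Ikzf2 reached an unadjusted p below 0.05, 2 of the 8, against 11.2% of all genes. The 8 log2 differences (MUT minus WT) had a median of -0.0042, against -0.019 over all genes, and 3 were above 0.

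Runx2 had the largest difference of the 8. Its linked length was 1991, 1964, 1617 and 1572 bp in WT and 2448, 2496, 2431 and 2169 bp in MUT. Every MUT library lay above every WT library, a pattern that 4.22% of all genes showed in this direction and 1.52% in the other. The means were 1786 ± 222 and 2386 ± 147 bp (SD, n = 4 each), 33.6% higher in MUT (log2 0.35, SE 0.0691, unadjusted p = 0.000836, limma adjusted p = 0.0819). At a linking distance of 10 kb, which leaves the region upstream of the start alone, the difference was -0.053 (limma adjusted p = 0.928). A region in the gene body 40.7 kb from its end (chr17, 44536539 to 44536925) was called mostly in MUT. It had no peak in 3 WT libraries, 200 bp in WT replicate 5, and 341, 345, 374 and 376 bp in MUT. Fisher's exact test of 1 against 4 libraries gave p = 0.143 (adjusted p = 1). Without that region, left out after its values were seen, the linked length was 1991, 1764, 1617 and 1572 bp in WT and 2107, 2151, 2057 and 1793 bp in MUT, and the groups overlapped. The 4 Runx2 regions called in 8 of 8 libraries summed to 1333 ± 43.3 bp in WT and 1353 ± 17.5 bp in MUT.

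The unlinked regions inside Runx2 leaned the same way in their calls. Of the 23 consensus regions there, 7 had a peak in more MUT than WT libraries and 0 in more WT than MUT libraries, and for the 8 linked regions the counts were 4 and 0. Over all consensus regions the shares were 14.9% and 9.97%. One of the unlinked regions was MUT-only (44661606 to 44661887, 153 kb after the start), with 200, 264, 200 and 241 bp in MUT and no peak in WT (Fisher's exact test, p = 0.0286, adjusted p = 1). It ranked low by score, at percentiles of 8.07 to 32.2. Over all 24 unlinked regions there, 1 of them called in a single library, the summed length was 8394, 9236, 8751 and 8241 bp in WT and 10155, 10518, 10391 and 8866 bp in MUT, and the groups overlapped through WT replicate 5 and MUT replicate 29. Summed linked length at the B cell markers was 3.68 to 4.33 kb in WT and 4.11 to 6.27 kb in MUT, with 6 of 8 tested genes above 0 on the log2 scale and 3 that did not overlap and were higher in MUT. Over all genes 6004 of 14258 were above 0 and 4.22% did not overlap in that direction. At the T cell markers it was 8.49 to 9.63 kb in WT and 9.05 to 11.9 kb in MUT before scaling, but 3 of 7 tested genes were above 0 and the median log2 difference was -0.038. Of the NK markers 1 of 10 passed, Klrb1c, lower in MUT (log2 -0.27, limma adjusted p = 0.0312), where 0.231% of all genes were lower, and of the other marker lists 0. Of all 10 NK markers 2 were above 0 on the log2 scale, and the median log2 difference was -0.062. Ncr1 was 1 of these 2. It had more linked length in every MUT library than in every WT library (means 3448 and 2855 bp, limma adjusted p = 0.278). The part of other cell types in the Runx2 values was not tested. In these bulk samples fewer cells of a type and less signal per cell cannot be told apart.

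**Figure D4:**
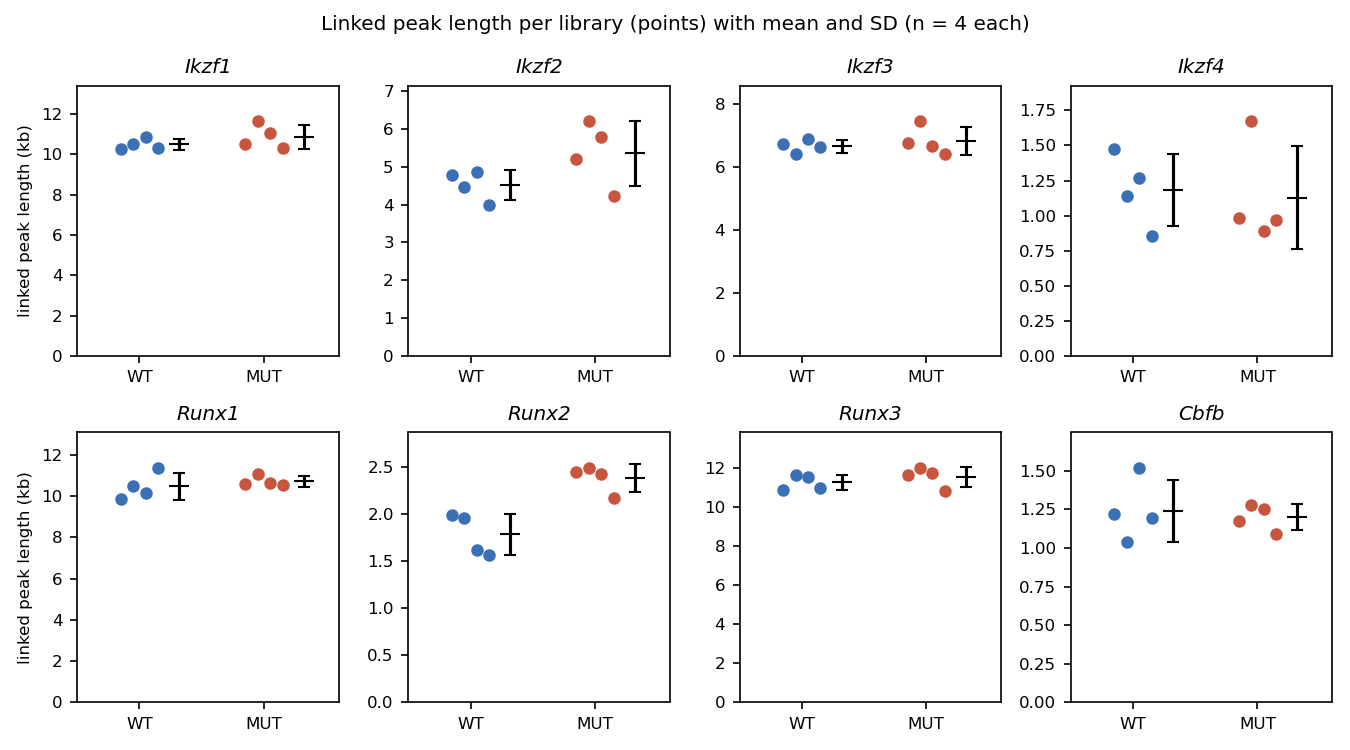
Linked peak length in kb of each gene in each library (points; blue WT, red MUT), with the mean and SD of each group beside the points (n = 4 each) and each axis starting at 0. The groups are separate at Runx2 and overlap at the other 7 genes.

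At the other Runx genes and Cbfb the genotypes overlapped, with differences smaller than their standard errors. Runx3 had 10875, 11641, 11519 and 10963 bp in WT and 11652, 12001, 11716 and 10796 bp in MUT (log2 -0.0030, SE 0.0319, limma adjusted p = 0.984). Runx1 had 9880, 10465, 10164 and 11373 bp in WT and 10569, 11077, 10655 and 10529 bp in MUT (log2 -0.0054, SE 0.0581, limma adjusted p = 0.985). Both signs turn positive without the scaling of libraries. Cbfb had 1217, 1036, 1520 and 1192 bp in WT and 1174, 1277, 1251 and 1092 bp in MUT (log2 -0.069, SE 0.0947, limma adjusted p = 0.830).

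Among the Ikaros genes Ikzf2 had the largest difference relative to its error. Its linked length was 4783, 4454, 4853 and 3993 bp in WT and 5212, 6201, 5787 and 4216 bp in MUT (log2 0.19, SE 0.0794, unadjusted p = 0.0455, limma adjusted p = 0.430). MUT replicate 29 lay within the WT range and the other 3 above it. A body region (chr1, 69544239 to 69544581) was called in WT replicate 6 alone among WT, with 316 bp, and in all 4 MUT libraries with 293 to 309 bp, and a second (69669994 to 69670402) in 0 WT and 3 MUT libraries (Fisher's exact test p = 0.143 for each, adjusted p = 1). Ikzf1 had 10285, 10501, 10854 and 10330 bp in WT and 10518, 11644, 11044 and 10305 bp in MUT (log2 0.011, SE 0.0278, limma adjusted p = 0.911). Ikzf3 had 6717, 6387, 6881 and 6630 bp in WT and 6748, 7442, 6667 and 6401 bp in MUT (log2 -0.0066, SE 0.0372, limma adjusted p = 0.965), a sign that also turns without scaling. MUT replicate 27 was the highest library at Ikzf1, Ikzf2, Ikzf3, Ikzf4, Runx2 and Runx3.

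Ikzf4, with 3 regions, had 1474, 1143, 1265 and 858 bp in WT and 982, 1673, 892 and 967 bp in MUT (log2 -0.11, SE 0.172, limma adjusted p = 0.853). Behind this small net value its pair of shared regions had differences of opposite sign. The upper one by coordinate (chr10, 128663507 to 128664172) measured 583, 571, 579 and 557 bp in WT and 200, 577, 200 and 260 bp in MUT. All WT libraries and MUT replicate 27 were long, and the other 3 MUT libraries short. In those 3 no peak was called over the lower part of the region by coordinate, which WT replicate 4 had as a separate peak. The 200 bp of MUT replicates 26 and 28 is also the shortest length among all consensus regions. The log2 difference of the region was -1.07 (SE 0.295, unadjusted p = 0.00624, limma adjusted p = 0.314 over 34461 regions). Without MUT replicate 27 it was -1.39 (limma adjusted p = 0.0158), past the threshold. Its percentile was 52.0 to 68.0 in WT and 9.04, 67.6, 18.9 and 31.0 in MUT. The lower one (128636643 to 128637457) measured 639, 572, 686 and 301 bp in WT and 782, 726, 692 and 707 bp in MUT (log2 0.44, SE 0.231, limma adjusted p = 0.586), with no overlap between the groups. WT replicate 7 had no peak over the lower part of this region, where every other library had one. Without WT replicate 7, the shortest library there, the difference was 0.18 (limma adjusted p = 0.610). Its percentile was 18.0 to 40.9 in WT and 42.8 to 60.9 in MUT.

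Most of the regions were called in both genotypes. A peak in all 8 libraries was found in 76 of the 108 consensus regions (70.4%), against 68.9% of all. No region of the 8 genes was MUT-only (4 of 4 against 0 of 4 libraries) or WT-only, where 0.583% and 0.178% of all consensus regions were. A peak in more MUT than WT libraries was seen in 17 of the 108 (15.7%) and the reverse in 8 (7.41%), against 14.9% and 9.97% of all consensus regions. A Runx1 body region (chr16, 92639114 to 92639416) was among the latter, with 236, 278 and 289 bp in 3 WT libraries and no peak in WT replicate 6 or in MUT. In the other direction, 0 WT and 3 MUT libraries had a peak at an Ikzf3 region (chr11, 98497384 to 98497637) and a Runx3 region (chr4, 135149864 to 135150115), and MUT replicate 29 was the library without one at both, as at Ikzf2. Without MUT replicate 29 the MUT-only count is 3, these and the Ikzf2 region at 69669994. It is 1 without WT replicate 5 (the Runx2 region at 44536539) and 1 without WT replicate 6 (the Ikzf2 region at 69544239), and the WT-only count is 1 without WT replicate 6 (the Runx1 region). Over all consensus regions the same omissions moved the MUT-only count from 292 to 522, 405 and 503, and the WT-only count from 89 to 173.

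By limma on log2 region length, 0 of the 76 shared regions passed, where 0.0493% of all 34461 were longer and 0.029% shorter in MUT (0.0783% together). An unadjusted p below 0.05 was reached by 7 (9.21%, against 9.69% of all). The lowest was an Ikzf1 body region (chr11, 11762901 to 11763783) with 618, 672, 658 and 611 bp in WT and 866, 862, 836 and 668 bp in MUT (log2 0.30, SE 0.0683, unadjusted p = 0.00198, limma adjusted p = 0.245). MUT replicate 29 lay just inside the WT range and the other 3 well above it. Lengths did not overlap between the groups in 3 of the 76 regions, each longer in MUT, against 3.76% longer and 1.65% shorter over all shared regions. These were the Ikzf4 region above, the Ikzf3 body region at 98509294 and a Runx1 region 19.6 kb inside the gene end (chr16, 92620670 to 92621425; 658 to 695 bp in WT, 699 to 709 bp in MUT, log2 0.02, limma adjusted p = 0.923). The Ikzf3 region had a scaled difference of -0.0053 (limma adjusted p = 0.970), which is 0.023 without centring of the libraries. Score percentiles, which rank within lists of unequal length, were separate between the genotypes in 8 of the 76 regions, 4 higher and 4 lower in MUT, where 7.6% and 5.21% of all shared regions were.

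**Figure D5:**
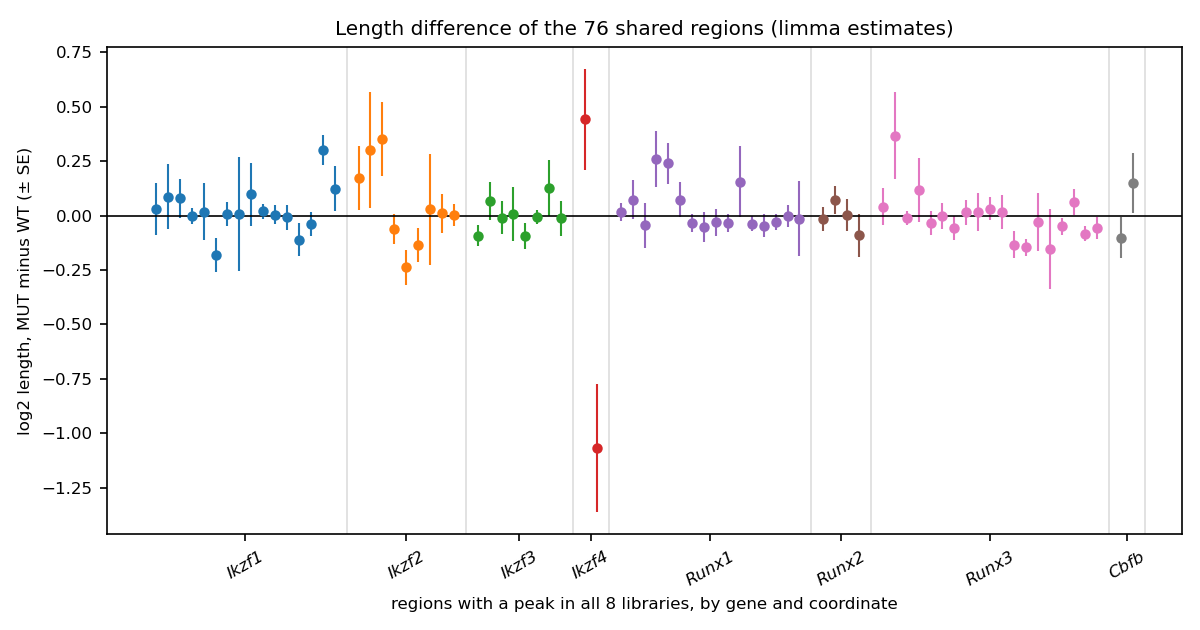
Log2 length difference (MUT minus WT) of each of the 76 regions with a peak in all 8 libraries, by gene and in order of coordinate, with the standard error from limma. Most lie near 0, and the highest and lowest values are the Ikzf4 pair at 0.44 and -1.07.

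Genes that work with these factors were taken as 3 lists of 20. Of the Ikaros partners and cofactors (the NuRD, CtBP and Sin3 complexes, the ATPase Smarca4, the family member Ikzf5 and Crbn), 0 of 20 tested genes passed in either direction, and 5 fell below an unadjusted p of 0.05. Over all genes 0.673% passed and 11.2% fell below that unadjusted p, which is also the background for the other lists. The lowest was Chd3, a NuRD remodeller, whose WT mean was 3040 ± 70.8 bp and MUT mean 2766 ± 200 bp (SD, n = 4, limma adjusted p = 0.227). Crbn followed, with 881 ± 171 and 1263 ± 84.1 bp (limma adjusted p = 0.229). Its human form is the substrate receptor through which thalidomide analogues degrade Ikaros and Aiolos. Next was Hdac2, a histone deacetylase of NuRD, with 1360 ± 33.8 and 1215 ± 144 bp (limma adjusted p = 0.254). Of the Runx partners and cofactors 0 of 19 tested passed, and for 4 the unadjusted p was below 0.05. The Groucho corepressor gene Tle3 had means of 3988 ± 354 (WT) and 4906 ± 387 bp (MUT; limma adjusted p = 0.129), the acetyltransferase gene Crebbp 1195 ± 38.6 and 1419 ± 58.1 bp (limma adjusted p = 0.179), and Tle2 1571 ± 54.0 and 1403 ± 108 bp (limma adjusted p = 0.235). The groups did not overlap, with MUT higher, at Crbn and Sin3a among the 20 Ikaros partners and at Tle3, Crebbp and Ep300 among the 19 Runx partners, against 4.22% of all genes. Of the genes known as targets of these factors 0 of 17 tested passed, and for 2 the unadjusted p was below 0.05. The cytokine receptor gene Flt3 had means of 464 ± 75.6 (WT) and 735 ± 192 bp (MUT; limma adjusted p = 0.259), the T-box factor gene Eomes 3766 ± 177 and 3606 ± 351 bp (limma adjusted p = 0.378), and the integrin gene Itgam 3721 ± 325 and 4168 ± 137 bp (limma adjusted p = 0.490). The medians of the 3 lists were 0.0071, 0.012 and 0.017 on the log2 scale.

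Over the 8 libraries, the gene whose linked length followed that of each member most closely, among 7277 others with at least 1000 bp, was Fndc3a for Ikzf1 (Pearson's r 0.971), Dop1b for Ikzf2 (0.963), Dab2ip for Ikzf3 (0.960) and Epb41l4a for Ikzf4 (0.916). It was Golga3 for Runx1 (0.975), Ccnt2 for Runx2 (0.978), Syf2 for Runx3 (0.966) and Tbc1d15 for Cbfb (0.919). The 8 points share the genotypes and the list sizes, and the best of so many genes is high by selection.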

How the data were processed

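The deposited data were 8 peak lists, each from the library of a single mouse. Every entry holds coordinates, a label and a score of the authors that the files do not name, used here only to rank peaks within a list. Coordinates are in mm10 (GRCm38), per the submitters' processing notes, which name as tools DiffBind (3.0.12), DESeq2, Bowtie2 (2.3.4.1) and Trimmomatic, without their order. For the peak caller, its threshold and a possible transposase offset, the entry is "not given in the sources used here".

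Genes came from RefSeq (GRCm38.p6), and the promoter table gave strand and starts for 5 of the 8 genes. Peaks overlapping by at least 1 bp were merged, and the lengths of several peaks of a library in the same merged region were summed. Linked lengths were scaled so that each library had the median total, and genes with a linked peak in at least 2 libraries were tested. Region lengths were centred on the library median. Both were tested with limma 3.58.1 (trend) in R 4.3.3 with Benjamini-Hochberg adjustment, and peak calls by Fisher's exact test (smallest p 0.0286). Differences of linked length are of log2(bp + 200), which compresses change at short lengths, while printed bp are unscaled. Python 3.11.15 was used, and the code was tested on simulated data.

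The 8 genes and the lists were chosen with earlier results of these data known. The rule for naming takes the regions at gene starts, the highest ranked and longest regions, group-only regions, regions with no overlap between genotypes, the 3 list genes with the smallest p and, per member, the 1 gene with the highest r. Other regions were named after their values were seen. Depth is unknown, so no interval based on reads is given.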

Additional observations from a re-analysis of the deposited data

Results flagged for a closer look

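In each group of 4 libraries the gap between the most extreme library and its neighbour was set against the range of the group. This was done for the linked length of the 8 genes and for 6 region lengths. The regions were the 3 with no overlap between genotypes and the 3 with the smallest limma p. Of 28 groups, 4 had a library with a gap above Dixon's critical share. For a single group chosen beforehand chance gives about 1 in 20. That rate cannot be set against the 4, because the regions were chosen by their values. The Ikzf4 region at 128663507 is also part of the linked length of Ikzf4. In 3 of the 4 that library was MUT replicate 27, which has the longest peak list.

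The linked length of Ikzf4 was 1673 bp in MUT replicate 27 and 982, 892 and 967 bp in the other MUT libraries. The Ikzf4 region at 128663507 was 577 bp long in MUT replicate 27, against 200, 200 and 260 bp. The proximal start region of Runx3 was 1031 bp long in MUT replicate 27, against 911, 916 and 917 bp. The Ikzf1 body region at 11762901 was 668 bp long in MUT replicate 29, against 866, 862 and 836 bp.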

How the results depend on the processing

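No paired analysis was possible because the replicate numbers of the WT and MUT libraries have none in common. None of the 8 genes passed the limma threshold under any of the 18 alternatives, and the adjusted p of Runx2 ran from 0.0620 (linking distance 100 kb) to 0.928 (10 kb, where its log2 difference was -0.053). Small differences changed sign: without scaling at Ikzf3 (0.032), Runx1 (0.033) and Runx3 (0.036), at 10 kb at Runx1 (0.044), at 100 kb at Runx1 (0.0072) and Runx3 (0.019), and with the upper 50% of each list at Ikzf3 (0.058) and Runx1 (0.065). The Ikzf3 region at 98509294 was at 0.023 without centring and 0.018 with the upper 50%. Without a change of sign, the upper 50% moved Ikzf1 from 0.011 to 0.29 (unadjusted p = 0.0466, limma adjusted p = 0.552), Ikzf2 from 0.19 to 0.59 (limma adjusted p = 0.296) and Ikzf4 from -0.11 to -0.59 (limma adjusted p = 0.876), and 10 kb moved Ikzf2 to 0.083. Equal numbers of peaks moved the proximal Runx3 region from -0.15 to -0.29. The cause was not tested. Leaving out 1 library gave log2 ranges of -0.0045 to 0.028 for Ikzf1, 0.14 to 0.26 for Ikzf2, -0.034 to 0.013 for Ikzf3, -0.25 to -0.018 for Ikzf4, -0.038 to 0.049 for Runx1, 0.31 to 0.39 for Runx2, -0.025 to 0.015 for Runx3 and -0.15 to 0.020 for Cbfb. For the regions it gave -0.032 to 0.017 (Ikzf3, 98509294), -0.014 to 0.039 (Runx1, 92620670), -1.39 to -0.90 (Ikzf4, 128663507) and 0.18 to 0.57 (Ikzf4, 128636643, lowest without WT replicate 7). Among regions of the 8 genes, MUT-only counts ran from 0 to 3 and WT-only counts from 0 to 1 when 1 library was left out, calls of length from 0 to 1, and the upper 50% gave 1 MUT-only region of 43. Over all genes, 63 higher and 33 lower became 28 and 13 at 10 kb, 63 and 19 without scaling, and 54 lower with equal numbers of peaks, and leaving out 1 library gave 19 to 53 and 3 to 29. Over all regions, 89 WT-only became 138 with equal numbers of peaks (102 to 196 leaving out 1 library), 292 MUT-only became 346 to 522 leaving out 1 library, and 27 length calls became 41 with a merge gap of 200 bp, 16 with the upper 50% and 19 to 47 leaving out 1 library. With depth unknown, a region without a peak may lie just under the calling threshold, and peak lengths carry no counting error.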
